A study of Ovis aries with 10 samples.

Results

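The 10 genes described here mark the endothelial cells that line blood vessels: PLVAP, CLDN5, SLC2A1, FLT1, KDR, TEK, TIE1, CDH5, PECAM1 and VWF. They were chosen by name from a count table of 33775 genes. Of these, 9 were listed under their own symbol, and PLVAP was found by its gene identifier (101111878), listed in the table as LOC101111878. All 10 passed the filter on low counts, which left 18276 genes for testing. The tissue was the mediobasal hypothalamus of adult Ile-de-France ewes, taken in either the follicular or the luteal phase, and the labels name no other treatment. RNA of 20 ewes, 10 a phase, was mixed in equal amounts, 2 ewes to a library, which gave 5 follicular and 5 luteal libraries that the submitters count as biological replicates. A library is thus an average of 2 animals, and differences between single ewes cannot be seen. Library totals ran from 20644992 to 43193449 reads, and follicular 1 and 3 were the shallowest.

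Blood vessels of the brain form a barrier: their endothelial cells are sealed by tight junctions and take up glucose through a dedicated transporter. The capillaries of the median eminence, at the floor of this region, lack that barrier. Their endothelium is perforated by fenestrae that let releasing hormones enter the portal blood to the pituitary. Vascular endothelial growth factor and the angiopoietins control the growth and permeability of both vessel types through receptor tyrosine kinases on the endothelial surface. The ovarian cycle sets the level of circulating progesterone, which is high in the luteal phase, and the series title asks what progesterone does to the transcriptome of this region.

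All 10 genes had reads in every library, with the lowest count in any library at 137 reads (TEK). Endothelial RNA was therefore present in all 10 mixes. Levels are given as CPM, counts scaled to a common library total after TMM normalisation. CPM is not divided by transcript length, so values are compared between libraries for 1 gene and not between genes. In whole tissue, fewer endothelial cells and less RNA per cell cannot be told apart.

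Mean levels of TEK, CDH5 and KDR were higher in luteal libraries by 64.2%, 45.8% and 28.4%, while the difference was -21.1% for the tight junction gene CLDN5 and 11.2% for the fenestral gene PLVAP (all as fitted fold changes). None of the 10 passed the quasi-likelihood test of edgeR after adjustment over all genes. Of all genes tested 0 (0%) passed (2083 had an unadjusted p under 0.05), with a lowest adjusted p of 0.426, while DESeq2 called 35 genes and limma-voom 0, none of them among the 10. At an unadjusted edgeR p under 0.05, 3 of the 10 were higher in luteal libraries (TEK, CDH5 and KDR) and 0 lower, against 4.27% higher and 7.12% lower of all genes tested. That count was 2 without follicular 1 or 3 or luteal 2, 3 or 5, and 1 (CDH5) without follicular 1 and 3 together. Follicular 1 and 3 were the lowest libraries for all 3 genes, so leaving them out had to lower these fold changes. The number of the 10 at that p rose to 4 without follicular 5 (FLT1 joined). It was also 4 with the replicate number as a block (CLDN5 joined, lower) or the first principal component as a covariate. The shares of all genes in these fits are not given. For 8 of the 10 the fold change was above 0, where 51.5% of all genes lay above 0. The median log2 fold change of luteal over follicular was 0.16 over the 10 genes and 0.01 over all genes tested. For 0 of the 10 were all luteal values above all follicular values, a separation shown by 0.607% of genes.

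**Figure D1:**
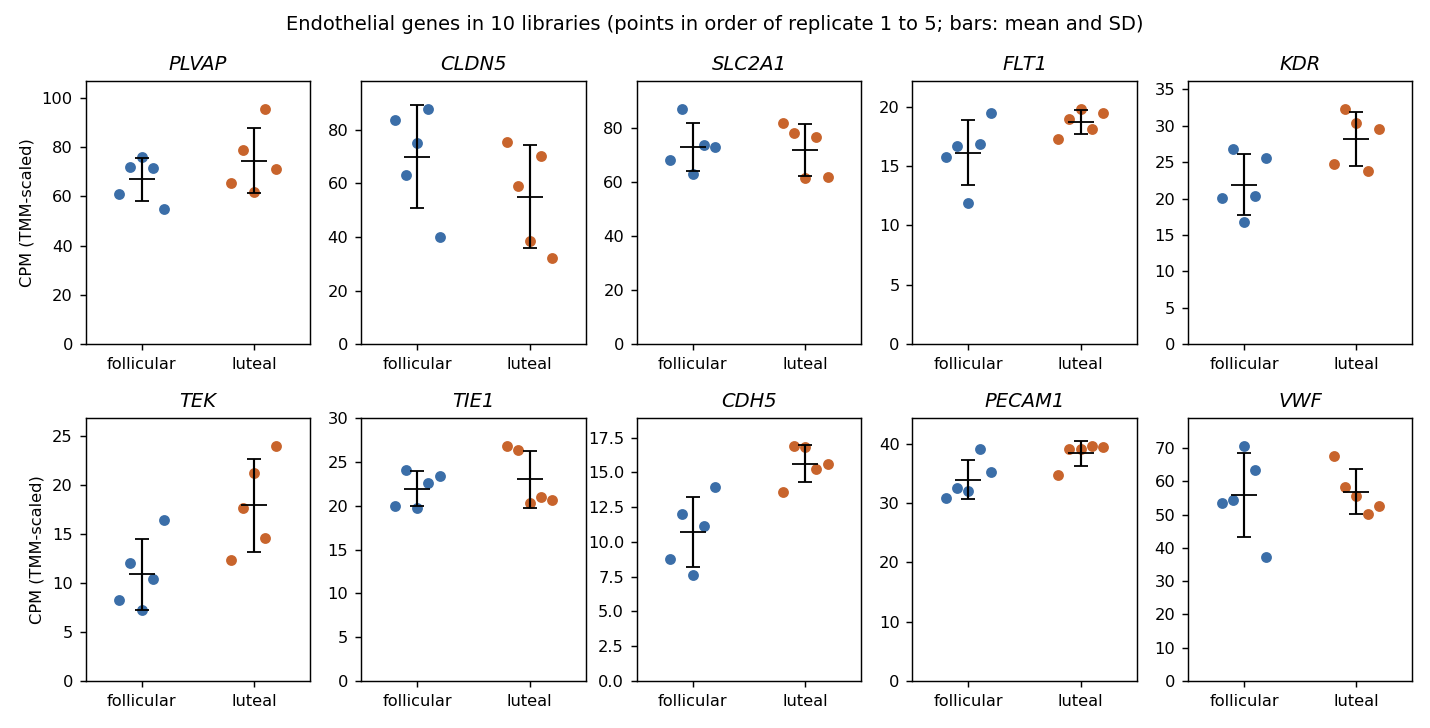
Levels of the 10 endothelial genes in CPM (vertical axes from 0) in follicular (blue) and luteal (orange) libraries, 1 point per library with the mean and SD of 5. The 2 phases overlap for every gene, and CDH5 comes closest to separation, with luteal 1 at 13.6 CPM just under follicular 5 at 13.9 CPM.

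PLVAP encodes the protein of the diaphragms that span fenestrae and is the marker of the portal capillaries. Its level in follicular libraries 1 to 5 was 61.0, 71.8, 76.0, 71.4 and 54.9 CPM, and in luteal libraries 1 to 5 it was 65.5, 78.7, 61.8, 95.4 and 70.9 CPM. Luteal 4 was the highest library and follicular 5 the lowest, and the medians of the phases were 71.4 and 70.9 CPM. The means were 67.0 ± 8.73 and 74.5 ± 13.3 CPM (SD, n = 5 per phase), a 1.11-fold difference with a 95% interval from 0.906 to 1.36 (edgeR adjusted p = 0.553). RNA of pituitary tissue, which is joined to the median eminence and has fenestrated capillaries of its own, was present in every library. The summed level of the 9 tested pituitary genes, led by CGA and PRL, ran from 3428 to 4932 CPM in the follicular group and from 2773 to 4961 CPM in luteal libraries. CGA, the shared subunit of the pituitary glycoprotein hormones, averaged 2033 ± 245.4 CPM (follicular) against 1343 ± 340.6 CPM (luteal) with no overlap of the phases, and PRL ranged from 144.2 to 2721 CPM. Of that list GHRHR had at most 9 reads in a library. The part of this tissue in the PLVAP level was not tested.

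CLDN5, the main claudin of the tight junctions of barrier vessels, had 83.7, 63.1, 74.9, 87.6 and 40.0 CPM in follicular libraries 1 to 5. In luteal libraries 1 to 5 it had 75.3, 59.0, 38.3, 70.3 and 32.3 CPM. Follicular 5, luteal 3 and luteal 5 were low, and the other 7 libraries lay at 59.0 CPM or above, so that the low values occurred in both phases. The means were 69.9 ± 19.2 and 55.0 ± 19.1 CPM (SD, n = 5 per phase), with a log2 fold change of -0.34 (SE 0.26, edgeR adjusted p = 0.508). It was -0.20 without luteal 5 (edgeR adjusted p = 0.789). The interval of this fold, from 0.531 to 1.17, was the widest of the 10 genes on the log scale.

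SLC2A1, the glucose transporter of barrier endothelium, which astrocytes also express, averaged 72.8 ± 8.94 CPM (follicular) and 71.8 ± 9.54 CPM (luteal; SD, n = 5 per phase). Its values ran from 62.7 to 86.8 CPM and from 61.5 to 81.6 CPM. The fold of 0.986 had a 95% interval from 0.825 to 1.18 (edgeR adjusted p = 0.936), so that a larger difference in either direction lay outside the interval. Its reads may be shared with an overlapping pseudogene. The correlation of the 2 barrier genes across libraries did not pass (Pearson r = 0.43, Spearman rho = 0.36, permutation p = 0.214 and 0.311, adjusted p = 0.483 and 0.626 over 45 pairs, n = 10, r = -0.20 without the 2 libraries farthest from the median in CLDN5).

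The balance of PLVAP to CLDN5 within a library does not depend on how libraries are scaled. On the log2 scale this ratio was -0.46, 0.19, 0.02, -0.30 and 0.46 in follicular libraries 1 to 5 and -0.20, 0.42, 0.69, 0.44 and 1.14 in luteal libraries 1 to 5. Luteal 3 and luteal 5 were above every follicular library, and luteal 1 was below 3 of them. The means were -0.02 ± 0.37 and 0.50 ± 0.48 (SD, n = 5 per phase), a difference of 0.51 for which no p is given, since it combines genes of the list. CLDN5 was the more variable of the 2 genes within both phases (coefficient of variation 27.5% and 34.7%, against 13.0% and 17.9% for PLVAP, in follicular and luteal libraries).

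Of the receptors for vascular endothelial growth factor, KDR (VEGFR-2) carries most of the growth and permeability signal and FLT1 (VEGFR-1) binds the ligand strongly with weak kinase activity. KDR had 20.1, 26.8, 16.7, 20.3 and 25.6 CPM in follicular libraries 1 to 5 and 24.8, 32.3, 30.4, 23.8 and 29.6 CPM in luteal libraries 1 to 5. Luteal 2, 3 and 5 were above all follicular libraries, and luteal 1 and 4 were inside the follicular range. The fold was 1.28 with a 95% interval from 1.03 to 1.61 (log2 fold change 0.36, SE 0.15, unadjusted p = 0.032, edgeR adjusted p = 0.426). The unadjusted p of KDR was 0.0587 to 0.0814 when follicular 1, 3 or 4 or luteal 2, 3 or 5 was left out. Without follicular libraries 1 and 3 the log2 fold change of KDR was 0.22 (edgeR adjusted p = 0.994, the same for every gene of the list in that fit). They were the lowest libraries for KDR, so leaving them out had to lower its fold change.

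FLT1 had 15.8, 16.7, 11.9, 16.9 and 19.4 CPM in follicular libraries 1 to 5 and 17.3, 19.0, 19.8, 18.1 and 19.5 CPM in luteal libraries 1 to 5. Follicular 3 was the lowest library, and 2 luteal libraries were above the highest follicular one. The means were 16.1 ± 2.73 and 18.7 ± 1.02 CPM (SD, n = 5 per phase; 1.16-fold, 95% interval 0.949 to 1.42, edgeR adjusted p = 0.45). The log2 fold change of FLT1 was 0.21, and it was 0.12 without follicular 3 and 0.090 without follicular 1 and 3 (edgeR adjusted p = 0.755 and 0.994). Both were the lowest libraries for FLT1, so leaving them out had to lower its fold change.

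The angiopoietin receptor TEK (TIE2) keeps vessels quiescent when bound by angiopoietin 1, and TIE1 is its orphan partner. TEK had 8.25, 11.99, 7.27, 10.4 and 16.4 CPM in follicular libraries 1 to 5 and 12.3, 17.6, 21.2, 14.6 and 24.0 CPM in luteal libraries 1 to 5. Luteal 2, 3 and 5 were above all follicular libraries, while follicular 5 was above luteal 1 and 4. TEK had the largest fold of the 10 genes, 1.64 with a 95% interval from 1.14 to 2.37 (log2 fold change 0.72, SE 0.24, unadjusted p = 0.0125, edgeR adjusted p = 0.426). Without follicular libraries 1 and 3, the lowest for TEK, its log2 fold change was 0.47 (edgeR adjusted p = 0.994, the same for every gene of the list). Leaving out the lowest follicular values had to lower the fold change.

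TIE1 averaged 21.9 ± 2.00 CPM (follicular) and 23.0 ± 3.26 CPM (luteal; SD, n = 5 per phase), with values from 19.7 to 24.1 CPM and from 20.3 to 26.8 CPM. Its fold of 1.05 had a 95% interval from 0.872 to 1.26 (edgeR adjusted p = 0.774). The log2 ratio of TEK to TIE1 ran from -1.43 to -0.51 in follicular and from -1.12 to 0.21 in luteal libraries.

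Among the junction and surface proteins, CDH5 (VE-cadherin) joins endothelial cells at adherens junctions. CDH5 had 8.76, 11.99, 7.64, 11.1 and 13.9 CPM in follicular libraries 1 to 5 and 13.6, 16.9, 16.8, 15.3 and 15.6 CPM in luteal libraries 1 to 5. Of the luteal libraries 4 were above every follicular one. The fold was 1.46 with a 95% interval from 1.13 to 1.88 (log2 fold change 0.54, SE 0.17), and its unadjusted p of 0.00692 was the lowest of the 10 genes (edgeR adjusted p = 0.426). Without follicular libraries 1 and 3, the lowest for CDH5, the log2 fold change was 0.34 (edgeR adjusted p = 0.994, the same for every gene of the list). Leaving out the lowest follicular values had to lower the fold change.

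PECAM1 (CD31), an adhesion molecule at contacts between endothelial cells and also present on some blood cells, overlaps MILR1, so that reads of both may be mixed. It averaged 34.0 ± 3.32 and 38.4 ± 2.06 CPM (SD, n = 5 per phase; 1.13-fold, 95% interval 0.978 to 1.30, edgeR adjusted p = 0.432). Luteal libraries 2 to 5 lay between 39.1 and 39.7 CPM and luteal 1 at 34.7 CPM, and follicular libraries ran from 30.8 to 39.1 CPM. VWF, the clotting glycoprotein stored in endothelial granules, averaged 55.9 ± 12.5 and 56.9 ± 6.69 CPM (1.02-fold, 95% interval 0.804 to 1.29, edgeR adjusted p = 0.936). Follicular 5 was the lowest VWF library at 37.3 CPM and follicular 3 the highest at 70.6 CPM, so the luteal range of 50.3 to 67.5 CPM lay inside the follicular one.

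**Figure D2:**
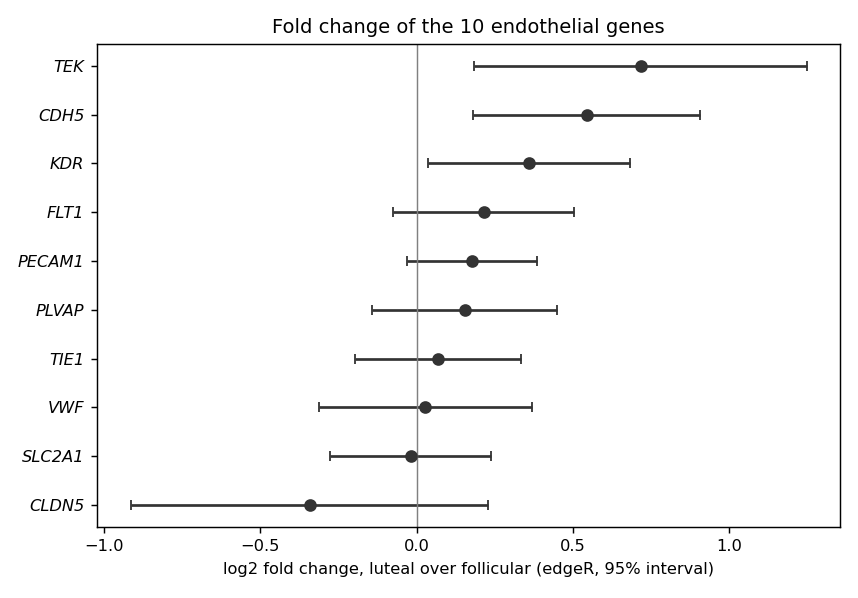
Log2 fold change of luteal over follicular for the 10 genes (horizontal axis), with points for the edgeR estimate and bars for the 95% interval without correction for multiple testing. The intervals of TEK, CDH5 and KDR lie above 0 and the other 7 include 0, from TEK at 0.72 to CLDN5 at -0.34.

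Across the 10 libraries the genes fell into unlike patterns. Of 45 pairs, 9 had an adjusted p under 0.05 for Pearson's r (permutation tests of log2 CPM), 8 of them positive and 1 negative. The share of such pairs among all genes was not computed, so this count cannot be called particular to endothelial genes. FLT1, KDR, CDH5 and TEK formed all 6 of their mutual pairs, with the highest r between CDH5 and TEK at 0.93 (Spearman rho = 0.94, permutation p = 8e-05 and 0.00016, adjusted p = 0.00135 and 0.0036, n = 10). That r was 0.84 without the 2 libraries farthest from the median in CDH5 and 0.86 after each gene was centred within its phase. The lowest of the 6 was FLT1 with KDR at 0.86 (rho = 0.78, permutation p = 0.00081 and 0.0103, adjusted p = 0.00608 and 0.0476), and it was 0.67 without the 2 farthest libraries in FLT1.

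CLDN5 with TEK was the negative pair, at r = -0.85 (Spearman rho = -0.85, permutation p = 0.00153 and 0.00276, adjusted p = 0.00984 and 0.0207, n = 10; r = -0.68 without the 2 farthest libraries in CLDN5). Centred within phases this r was -0.88, so it was as strong within phases. CLDN5 with FLT1 and with KDR passed by rho (both adjusted permutation p = 0.0476) and not by r (adjusted permutation p = 0.151 and 0.106). SLC2A1 went with TIE1 (r = 0.79, rho = 0.82, permutation p = 0.00819 and 0.00552, adjusted p = 0.041 and 0.0355, n = 10; 0.77 without the 2 farthest libraries in SLC2A1). PECAM1 with CDH5 passed by r and not by rho (r = 0.79, rho = 0.64, permutation p = 0.00647 and 0.0543, adjusted p = 0.0364 and 0.175, n = 10), and r was 0.51 without the 2 farthest libraries in PECAM1. PLVAP and VWF were in 0 pairs past the threshold. All values of a library share its RNA, depth and scaling.

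The libraries also differed in the share of reads in 81 genes of cytosolic ribosomal proteins. What sets this share in a library was not tested. This share ran from 4.73% to 9.25% in follicular and from 4.89% to 7.12% in luteal libraries, with follicular 1 and 3 at 9.25% and 9.24% and follicular 5 lowest. TEK was lower where the share was higher (r = -0.92, Spearman rho = -0.87, permutation p = 0.00025 and 0.00219, adjusted p = 0.00165 and 0.0097 over 10 genes, n = 10; r = -0.81 without the 2 libraries farthest from the median share). The relation was as strong within phases (r = -0.93 after centring).

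KDR, CDH5 and FLT1 ran the same way, with r = -0.89, -0.86 and -0.83 (rho = -0.82, -0.75 and -0.85, permutation p for r = 0.0007, 0.00196 and 0.00033 and for rho = 0.00581, 0.017 and 0.00291). The adjusted p was 0.00233, 0.0049 and 0.00165 for r and 0.0145, 0.034 and 0.0097 for rho. Without the 2 farthest libraries r was -0.77, -0.58 and -0.79, and CDH5 was the gene of the 4 whose r moved most. CLDN5 ran the opposite way (r = 0.85, rho = 0.88, permutation p = 0.00284 and 0.00147, adjusted p = 0.00568 and 0.0097, n = 10; r = 0.93 without the 2 farthest libraries and 0.83 after centring on phase). The other 5 genes did not pass, with r from -0.53 for PECAM1 to 0.56 for VWF (permutation p from 0.0896 to 0.842, adjusted p from 0.149 to 0.842; rho from -0.41 to 0.45, permutation p from 0.191 to 0.757, adjusted p from 0.319 to 0.757). Without the 2 farthest libraries these 5 had r from 0.11 to 0.60. How many of all genes followed the ribosomal share was not computed, so the relation cannot be called particular to these genes. The part of the ribosomal share in the phase differences was not tested. The first principal component of all genes tested, the 10 included, held 51.0% of the variance between libraries. Its mean was -20.9 in follicular and 20.9 in luteal libraries, with overlapping ranges. A fit with this component may therefore also take out part of a phase difference. With the component as a covariate in the edgeR model the log2 fold change was 0.29 for TEK, 0.34 for CDH5, 0.16 for KDR and 0.13 for CLDN5, whose sign turned (adjusted p from 0.485 to 0.834).

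**Figure D3:**
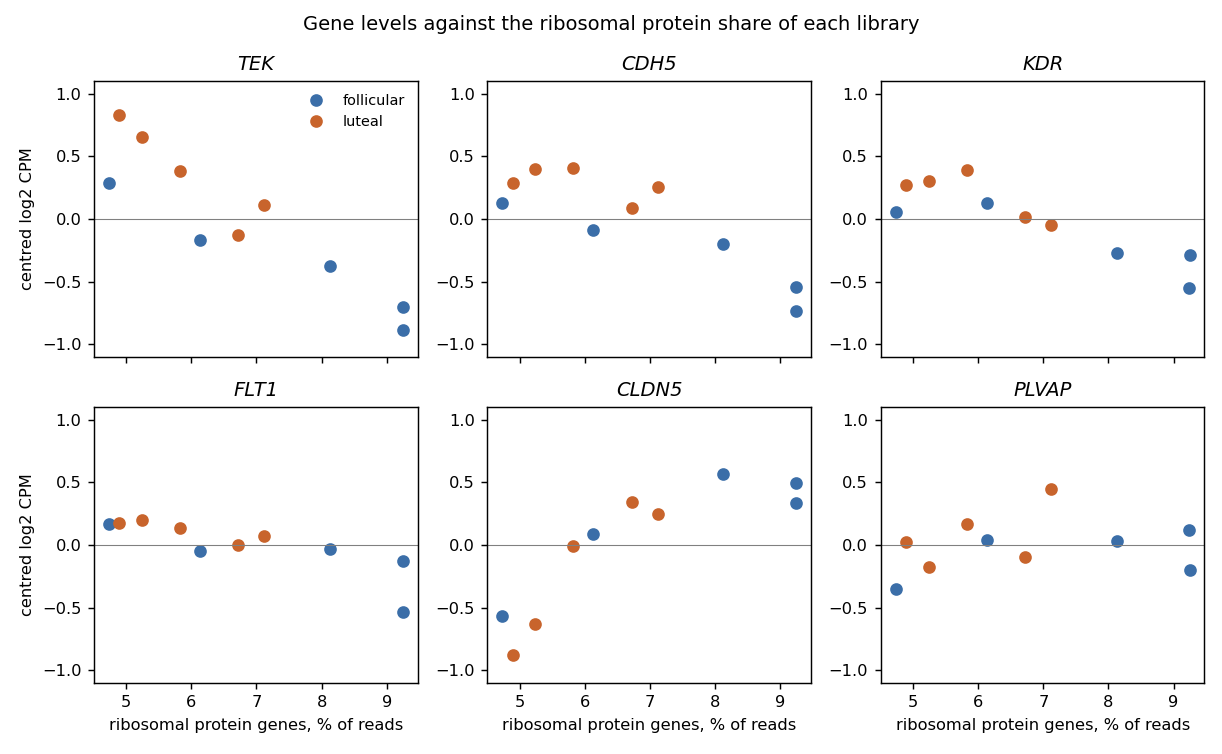
Log2 CPM of 6 genes, centred on the mean of 10 libraries (vertical axes), against the percent of reads in ribosomal protein genes (horizontal axes), 1 point per library, follicular blue and luteal orange. TEK, CDH5, KDR and FLT1 are lower in libraries with a higher share and CLDN5 is higher there. The relation of PLVAP did not pass (r = 0.23, and 0.52 without the 2 libraries farthest from the median share).

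**Figure D4:**
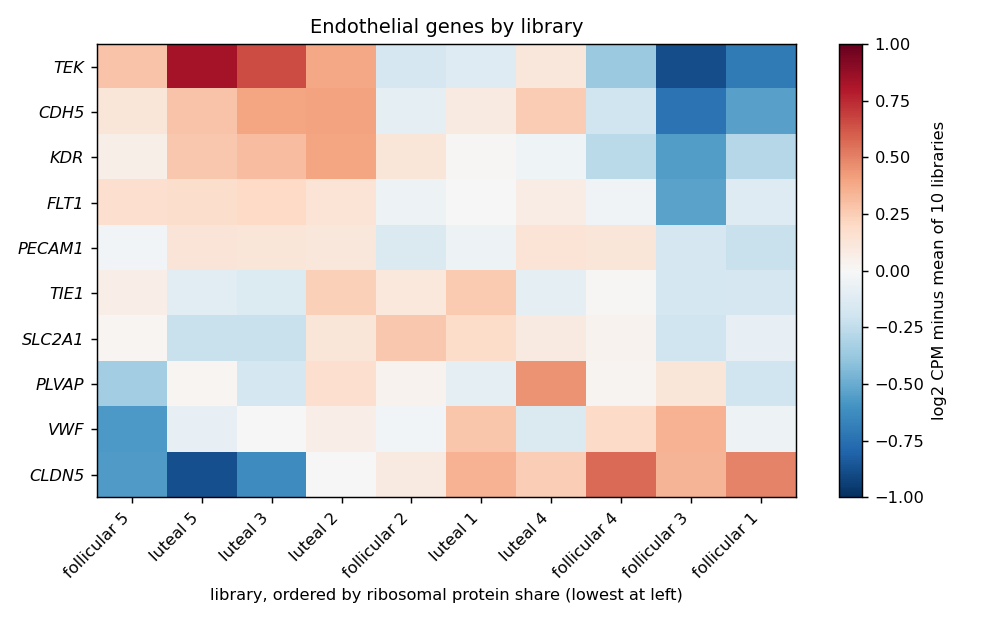
Log2 CPM of the 10 genes, centred on the mean of 10 libraries (red above, blue below), with libraries ordered by their ribosomal protein share from the lowest at left. TEK and CLDN5 run in opposite directions along the order, and PLVAP is highest in luteal 4, the luteal library with the highest share (7.12%).

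Averaged over the 10 genes, the centred log2 level of a library was -0.19, 0.01, -0.25, 0.01 and -0.08 in follicular libraries 1 to 5 and 0.09, 0.20, 0.05, 0.11 and 0.04 in luteal libraries 1 to 5. All 5 luteal averages were above all 5 follicular ones, a description for which no p is given. How often other sets of genes show such an order was not tested. This average weighs each gene equally on the log2 scale. The summed level of the 10 genes did overlap, at 339.2 to 416.4 CPM in follicular and 364.9 to 425.2 CPM in luteal libraries. Of the genes outside the 10, those most like the centred average over 10 libraries were TAP2 (r = 0.96), ANXA1 (0.94), LOC101122142 (0.93), HCRTR2 (0.92) and CD93 (0.92), the last of which encodes a receptor found on endothelium. Most like PLVAP were FZR1 (r = 0.93), RAB11FIP5 (0.92), CAVIN1 (0.92), PKN3 (0.91) and LOC121816828 (0.90). CAVIN1 encodes a coat protein of caveolae, the membrane pits in which the PLVAP protein also forms diaphragms. These were the highest of 18266 genes compared, over the same 10 libraries, and are a description of likeness.

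Of 23 other endothelial genes 22 were tested and 0 passed edgeR, with 14 above and 8 below 0 and a median log2 fold change of 0.06, against 0.01 for all genes. At an unadjusted edgeR p under 0.05 there were 0 higher and 1 lower (4.27% and 7.12% of all genes). The 22 genes summed to 616.5 to 855 CPM in follicular and 571 to 760.5 CPM in luteal libraries. RAMP2, the partner of the calcitonin-like receptor in adrenomedullin signalling, had the lowest p, at 107.2 ± 23.5 CPM (follicular) and 69.8 ± 20.2 CPM (luteal; SD, n = 5 per phase; log2 fold change -0.62, edgeR adjusted p = 0.426). S1PR1, a sphingosine phosphate receptor that steadies vessels, averaged 53.8 ± 18.1 and 74.0 ± 19.3 CPM (0.46). EGFL7, a secreted endothelial protein, averaged 293.9 ± 83.9 and 212.8 ± 72.4 CPM (-0.47). These 3 therefore lay on both sides of 0.

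Ligands and co-receptors for the receptors above gave 0 of 14 past the threshold. Of the 14, 7 were above and 7 below 0 (51.5% of all genes were above), with a median of -0.02. At the unadjusted p 1 was higher and 0 lower (4.27% and 7.12% of all genes). VEGFA, the main ligand of KDR, averaged 69.4 ± 15.0 CPM (follicular) and 84.2 ± 7.65 CPM (luteal; log2 fold change 0.28, edgeR adjusted p = 0.43). ANGPT1, the activating ligand of TEK, averaged 2.14 ± 0.55 and 3.23 ± 0.58 CPM (0.58, edgeR adjusted p = 0.426), and NRP1, a co-receptor of KDR, 15.9 ± 4.77 and 21.97 ± 4.99 CPM (0.46, edgeR adjusted p = 0.426). ANGPT2, which can oppose ANGPT1 at TEK, had a log2 fold change of 0.07. It is named for that role, outside the rule by which genes were named.

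Of 20 barrier genes 18 were tested and 0 passed, with 8 above and 10 below 0 (51.5% of all genes were above) and a median of -0.03. At the unadjusted p 1 was higher and 2 lower (4.27% and 7.12% of all genes). SLCO1C1, the thyroxine transporter of barrier endothelium, averaged 45.7 ± 17.7 CPM (follicular) and 29.3 ± 8.90 CPM (luteal; log2 fold change -0.64, edgeR adjusted p = 0.426). MFSD2A, a lipid transporter that holds down transcytosis, averaged 24.7 ± 6.15 and 17.5 ± 4.74 CPM (-0.50, edgeR adjusted p = 0.426).

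Of 15 genes for caveolae, permeability and adhesion 13 were tested and 0 passed. Fold changes were above 0 for 10 and below for 3 (51.5% of all genes were above), with a median of 0.22. At the unadjusted p 2 were higher and 0 lower (4.27% and 7.12% of all genes). EDNRB, an endothelin receptor that astrocytes share with endothelium, averaged 16.0 ± 5.85 CPM (follicular) and 31.5 ± 11.2 CPM (luteal; log2 fold change 0.97, edgeR adjusted p = 0.426). THBD, the thrombin-binding anticoagulant receptor, averaged 15.3 ± 1.86 and 19.4 ± 3.88 CPM (0.34, edgeR adjusted p = 0.426), and CAVIN2, another caveolar coat protein, 2.25 ± 1.2 and 3.60 ± 0.99 CPM (0.65, edgeR adjusted p = 0.432).

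Notch signalling between endothelial cells gave 0 of 10 past the threshold. Of the 10, 7 were above and 3 below 0 (51.5% of all genes were above), with a median of 0.14. At the unadjusted p 2 were higher and 0 lower (4.27% and 7.12% of all genes). Its ligands lay on both sides of 0: JAG1 averaged 30.1 ± 6.91 CPM (follicular) and 40.9 ± 6.89 CPM (luteal; 0.44), and DLL4, the ligand of arterial and tip cells, 33.9 ± 13.5 and 21.8 ± 8.72 CPM (-0.64). HEY2, a Notch target, averaged 20.6 ± 8.74 and 30.8 ± 4.77 CPM (0.57). All 3 had an edgeR adjusted p of 0.426. Genes of the response to low oxygen and of glucose use gave 0 of 16 past the threshold. They had 11 above and 5 below 0, a median of 0.13, and 2 higher and 1 lower at the unadjusted p, beside the same shares of all genes. Among them were NDRG1 at 85.0 ± 19.9 and 60.5 ± 6.61 CPM, PFKFB3 at 35.5 ± 13.2 and 51.3 ± 10.3 CPM and PDK1 at 12.3 ± 2.52 and 16.4 ± 3.67 CPM (log2 fold change -0.49, 0.53 and 0.41, edgeR adjusted p = 0.426 for each).

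**Figure D5:**
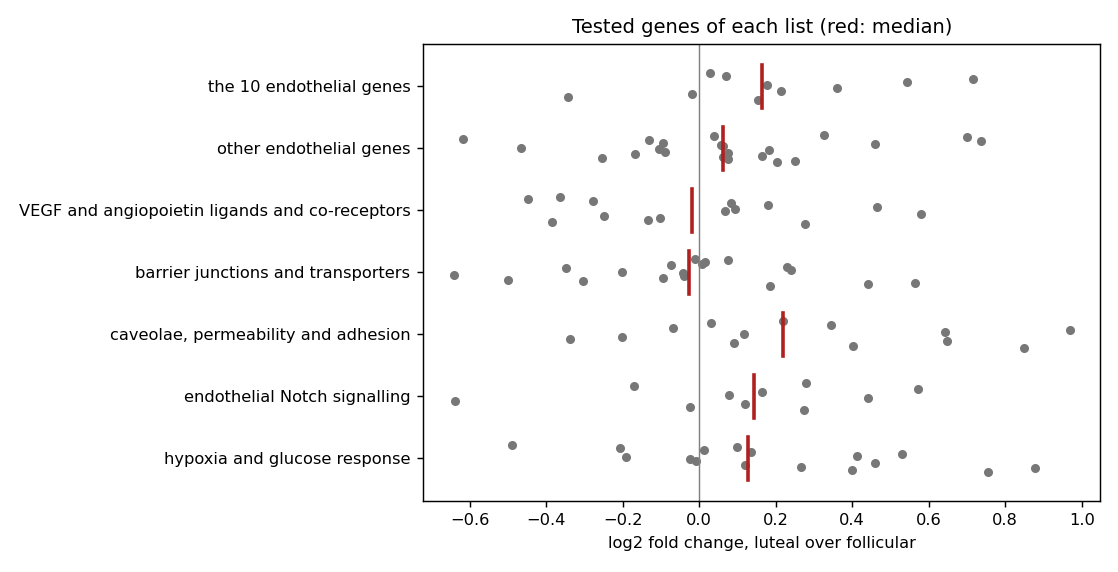
Log2 fold change of luteal over follicular (horizontal axis) for each tested gene of the 10 endothelial genes and of the 6 lists of related genes, with the list median in red. Medians run from -0.03 for barrier genes to 0.22 for caveolae, permeability and adhesion, and each list has genes on both sides of 0.

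Markers of cells that sit beside endothelium gave 0 calls by edgeR. For comparison, 51.5% of all genes tested lay above 0, and at the unadjusted p 4.27% were higher and 7.12% lower. Of 13 tested mural cell genes 4 were above and 9 below 0 (median -0.18, 1 higher and 2 lower at the unadjusted p), and their summed level was 490.9 to 640.3 CPM in the follicular group and 508.2 to 604.2 CPM in luteal libraries. Of these, NOTCH3, the Notch receptor of mural cells, had 74.5 to 84.6 CPM (follicular) and 98.3 to 118.9 CPM (luteal) with no overlap (log2 fold change 0.43, edgeR adjusted p = 0.426). Astrocyte markers summed to 4321 to 5460 CPM and 3419 to 5314 CPM (5 of 8 above 0), tanycyte markers to 1464 to 1668 CPM and 1602 to 2002 CPM (6 of 9 above 0), and fibroblast and meningeal markers to 574.1 to 680.3 CPM and 576.9 to 733.3 CPM (7 of 8 above 0). Microglia and macrophage markers summed to 405.6 to 668.0 CPM and 420.0 to 509.8 CPM (3 of 10 above 0), and lymphatic endothelial markers to 16.5 to 27.2 CPM and 20.4 to 33.5 CPM (2 of 3 above 0), with CCL21 at no more than 5 reads in any library. Choroid plexus markers summed to 48.5 to 79.8 CPM and 63.6 to 164.0 CPM (8 of 9 above 0), and oligodendrocyte and neuron markers had 1 of 8 and 4 of 8 above 0. The choroid plexus too has fenestrated capillaries. Luteal 4, the library with the highest PLVAP, had the highest choroid plexus sum. Luteal 2 had a sum of 80.6 CPM with PLVAP at 78.7 CPM. In follicular 1 and luteal 1 the sums were 65 and 63.6 CPM with PLVAP at 61.0 and 65.5 CPM. Other libraries were ordered differently. Luteal 3 and follicular 5 had sums of 86.3 and 79.8 CPM with PLVAP at 61.8 and 54.9 CPM. Follicular 2 had the lowest sum, 48.5 CPM, with PLVAP at 71.8 CPM. The part of these tissues in the endothelial values was not tested.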

How the data were processed

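RNA of 20 ewes in 10 pooled libraries was sequenced after TriReagent extraction and a stranded mRNA kit, per the labels' protocols. Per the submitters' processing notes, the tools were featureCounts 2.0.0, TopHat2 2.1.1, SAMtools 1.9, FastQC, Bowtie2 2.3.5.1 and bcl2fastq 2.20, with no settings named. The genome build and the strand setting are not given in the sources used here. What the authors deposited are raw counts per gene. Gene names not in the table came from assembly ARS-UI_Ramb_v3.0 (94.4% of identifiers matched). In it SLC2A1 overlaps a counted pseudogene (3088 reads in all libraries) and PECAM1 overlaps MILR1 (974 reads), so reads of these may be shared. Overlaps with few or no reads were those of TEK with LOC101110567 (56 reads) and LOC121818663 (39 reads), PLVAP with LOC114115128 (13 reads) and KDR with a pseudogene (0 reads).

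Counts were fitted in R 4.3.3 by the two-sided quasi-likelihood test of edgeR 4.0.16 on the 10 libraries, with no term but phase, after filterByExpr (minimum count 10, total 15) and TMM scaling. Benjamini-Hochberg adjustment ran over all genes tested (threshold 0.05). Intervals are at 95%. Log2 CPM used a prior count of 2. Correlations used 100000 permutations, the smallest possible p being 1e-05. The tests were run on simulated counts for the sign and size of known fold changes. Those counts were drawn independently for each gene at a common dispersion. They lack the variation that genes share between these libraries, so they do not show how the tests behave under it. No 2 libraries agreed within sampling noise (chi-square per degree of freedom at least 13.6 over 45 pairs).

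The members, the 16 other lists and the rules were chosen with earlier results of these data known. Of 197 list genes 195 were matched. Of each related list the 3 genes with the smallest p were named (1 is not reported here), and of each marker list at most the 2 most abundant. The 5 genes with the highest r were named as most like PLVAP or the average. Alternatives were other scalings, filters, tools (DESeq2 1.42.0, limma 3.58.1), robust dispersion, the replicate number and leaving out each library. The first principal component, and leaving out follicular 1 and 3, were added after seeing the data.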

Additional observations from a re-analysis of the deposited data

Results flagged for a closer look

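Of 72 groups of 5 libraries looked at, 1 held a library whose gap to its nearest neighbour was above Dixon's 95% limit for the group's range. Chance flags about 1 in 20. It was PECAM1 in luteal 1, at 34.7 CPM, where the other luteal libraries had 39.1 to 39.7 CPM.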

How the results depend on the processing

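No gene of the 10 passed under any of the 20 alternatives. In the whole table DESeq2 called 35 genes, leaving out 1 library at a time gave 0 to 1 (the 1 without luteal 4), and the other alternatives gave 0. The median log2 fold change of the 10 genes ran from 0.13 to 0.20. TEK, CDH5, KDR, FLT1, PECAM1 and PLVAP kept a positive log2 fold change throughout, for TEK from 0.29 to 0.92 (adjusted p from 0.0606 to 0.994), for CDH5 from 0.34 to 0.66 and for KDR from 0.16 to 0.45. PLVAP was between 0.05 (without luteal 4) and 0.28, and FLT1 between 0.069 and 0.29. With the first principal component 4 genes of the list had an unadjusted edgeR p under 0.05 (TEK, CDH5, VWF and PLVAP) and KDR did not (edgeR adjusted p = 0.744). The PLVAP to CLDN5 difference ran from 0.35 to 0.69.

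Directions turned for CLDN5, SLC2A1, VWF and TIE1. With the first principal component CLDN5, at -0.34 without it, was at 0.13, and SLC2A1 was at 0.00024. Leaving out 1 library kept CLDN5 between -0.49 (without follicular 5) and -0.20 (without luteal 5). Leaving out 1 library put SLC2A1 between -0.070 and 0.057 and VWF between -0.089 and 0.13. TIE1 was at -0.016 without follicular 1 and 3, which were its lowest libraries. The cause was not tested.

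With the replicate number as a block 0 genes were called, and the log2 fold change was 0.73 for TEK (edgeR adjusted p = 0.143), -0.37 for CLDN5 (SE 0.13 in place of 0.26, edgeR adjusted p = 0.15) and 0.15 for PLVAP. Same-numbered libraries correlated at -0.33 to 0.63 in their deviations from the phase means, and follicular 1, 4 and 5 correlated best with the luteal library of their own number and follicular 2 and 3 did not. The labels tie no number to an animal or a day, so the libraries were not treated as paired. With 5 libraries a phase the 95% intervals ran from 0.978 to 1.30-fold for PECAM1 and from 0.531 to 1.17-fold for CLDN5, the widest on the log scale.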
